A study of Mus musculus with 10 samples.

Results

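Advanced thymic tumours of Ikaros-mutant mice were compared with thymocytes of young mice of both genotypes, pooled. Members were chosen by the labels alone: the 6 tumour arrays, from mice carrying the IkL/L genotype, in which both copies of the Ikaros gene are hypomorphic (of reduced function), against the 4 arrays of unfractionated thymocytes from 3-week-old mice, 2 of them IkL/L and 2 wild type (WT), which together are all 10 arrays of the series. Total RNA was hybridized to Affymetrix MG_U74Av2 oligonucleotide arrays, in which a gene is read by 1 or more probe sets and the intensity is the measure of its messenger RNA. Both thymocyte genotypes were labelled as C57Bl6 background; the labels gave neither the strain background nor the age of the tumour-bearing mice, so tumour state and age cannot be told apart. The labels name no sorting or fractionation of the tumours, and they did not state how many mice these came from, so the p-values measure only the spread between these samples. The same probe set levels can reflect fewer cells of a type or less RNA per cell, which intensities of an RNA extract cannot tell apart.

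Ikaros, encoded by Ikzf1, is a zinc-finger DNA-binding protein of lymphoid cells that recruits chromatin-remodelling and deacetylase complexes and restrains Notch target genes in developing T cells. In the thymus, Notch signals drive progenitors into the T lineage: ligand binding releases the intracellular part of the receptor, which joins the DNA-binding protein RBPJ at target genes such as Hes1, Dtx1 and Ptcra. Thymocytes first lack both co-receptors, pass the pre-T-cell-receptor checkpoint, become CD4+ CD8+ double-positive cells that rearrange the receptor alpha chain with the RAG recombinase, and mature into single-positive cells after selection through the T-cell receptor. Notch signalling is normally shut down by the double-positive stage, and its persistence is a known feature of mouse and human T-cell leukaemia.

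Array medians were 79.8 to 113, and the scanner records give 2 chip lots: lot 1 held every thymocyte array and tumour 6, and lot 2 the remaining 5 tumours. All thymocyte arrays shared their hybridization day (day 1) with tumours 4 and 6, while the other 4 tumours were run on 2 other days. A difference within day 1 therefore rests on tumours 4 and 6, and one within lot 1 on tumour 6 alone. Tumour 6 also stood farthest from the others, with a median absolute log2 deviation of 0.433 from the median of the remaining tumours, against 0.266 to 0.367 for the other 5. The scanner records name all 10 samples as thymocyte RNA. For each gene below, the 3 tumour values are the lowest, the median and the highest of the 6 intensities, on the scale of the deposited table, and the thymocyte values are those of the single arrays. Ikzf1 had 151, 209 and 388 in tumours, against 626 and 401 in WT and 559.5 and 264 in IkL/L thymocytes; the 2 groups overlapped, and the gene did not pass the test (log2 difference -1.02 ± 0.30, 2.03-fold lower, adjusted p = 0.066). Its second probe set had -0.60 (adjusted p = 0.305). The labels do not say whether the mutation alters the part this probe set reads, so its level checks nothing about them. Lymphoid identity was read from 8 measured genes of a 10-gene list, among them Cd3e, Cd3d, Cd3g and Thy1. Their summed intensity was 24859.5 to 27722 in tumours and 37922 to 43894 in thymocytes, and none lay at the floor (an intensity of 16, to which lower values were raised) in every array of a group; the 3 CD3 genes and Thy1 were not called, while the stage-specific members Ptcra rose and Rag1, Cd4 and Cd8a fell (median log2 difference -0.32; -0.44 within day 1 and -0.94 within lot 1).

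Of 7172 tested probe sets, 291 were higher and 247 lower in tumours, 7.50% of all those tested (4.06% higher and 3.44% lower). A probe set was called when its adjusted p in limma, a linear model that shares its estimate of spread across genes, was under 0.05 and its mean in tumours lay on the same side of both the WT and the IkL/L mean; every probe set that passed the first criterion also met the second, whereas 76.6% of all tested probe sets met the second. The calls came from 251 higher and 217 lower genes and 25 and 16 probe sets without a unique symbol. Read by 1 probe set per gene, 7.94% of genes were called, and at an unadjusted p under 0.05 24.4% of probe sets passed. The called probe sets had a median fold of 2.34 for rises and 2.42 for falls, with 71 rises and 49 falls of at least 4-fold and 14 and 10 of at least 8-fold. In 459 of the 538 the 6 tumours and the 4 thymocyte arrays did not overlap, against 10.8% of all tested probe sets (5.45% with tumours above and 5.33% with tumours below); for any such probe set the exact two-sided permutation test over the 210 ways of choosing 4 of 10 arrays gives 0.00952, the smallest p it can give.

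**Figure D1:**
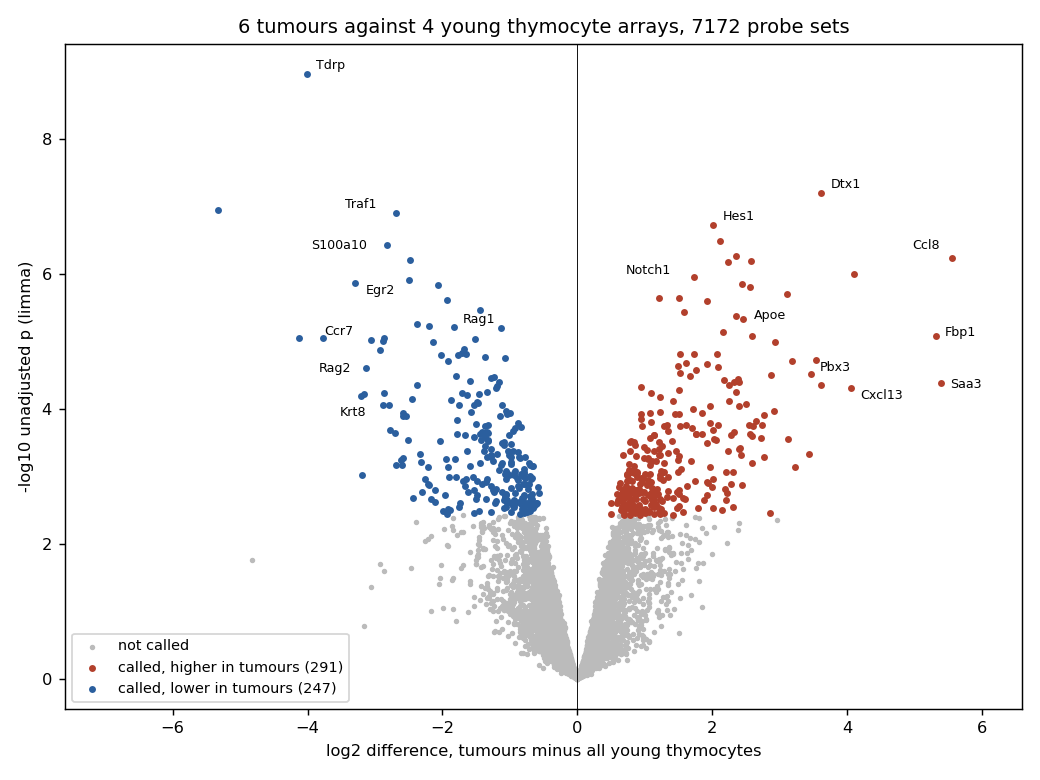
Each point is 1 of 7172 probe sets, placed by its log2 difference, tumours minus all young thymocytes (x axis), and the -log10 of its unadjusted limma p (y axis, no unit). The 291 called rises (right) and 247 called falls (left) are coloured, and Dtx1, Hes1 and Ccl8 stand among the rises and Tdrp and Traf1 among the falls with the smallest p.

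Pooling the 2 thymocyte genotypes changed how many probe sets could be called. Set against the 2 WT arrays alone 135 probe sets passed and against the 2 IkL/L arrays alone 102 (1.88% and 1.42%), and 384 of the 538 calls of the pooled comparison passed in neither. These comparisons share the tumour arrays. The count rested on the arrays at hand: it was 879 (12.3%) without tumour 6 and 375 to 506 without any other tumour. Without the first or second WT array it was 299 or 268, and without the first or second IkL/L array 230 or 273. Every one of the 538 kept its sign in each of these fits. Against each genotype alone the calling rule fixed that sign. The fits without 1 array share all other arrays, so the agreement is no independent support.

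Fewer probe sets were called with a batch term. Such a fit also has fewer residual degrees of freedom and rests on fewer arrays. For day and lot these are fewer tumours, and with module tumour 4 has no thymocyte array beside it. With run, tumours 4 and 6 stand against the first WT array alone, with no IkL/L array. The part of these limits in the loss of calls cannot be told apart from that of the batch. With hybridization day as a block 180 probe sets were called, 142 of them among the 538 (2.51% of those tested), and with chip lot 68, of which 30 were (0.948%). Within day 1 every one of the 538 kept its direction, and the median ratio of its log2 difference to that without a block was 1.005. Within lot 1, that is in tumour 6, 535 kept their direction, with a median ratio of 0.831 and 103 below 0.5. With fluidics module as a block 339 were called (4.73%; 305 shared), and with fluidics run 21 (0.293%; 14 shared). Over all genes, 0.840% were called higher and 1.68% lower within day 1, and 6.74% and 5.93% without tumour 6, the background for the counts of list members under those settings. Markers of other cell types also moved with the comparison. The summed intensity of 21 macrophage markers was 15054 to 28128 in tumours and 7335 to 8587 in thymocytes, and that of 14 thymic epithelial markers was 797 to 1709 in tumours and 2109.7 to 6049 in thymocytes. The cathepsin gene Ctsl made up much of the epithelial sum in thymocytes. The part of these other cell types in the gene groups that follow was not tested.

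**Figure D2:**
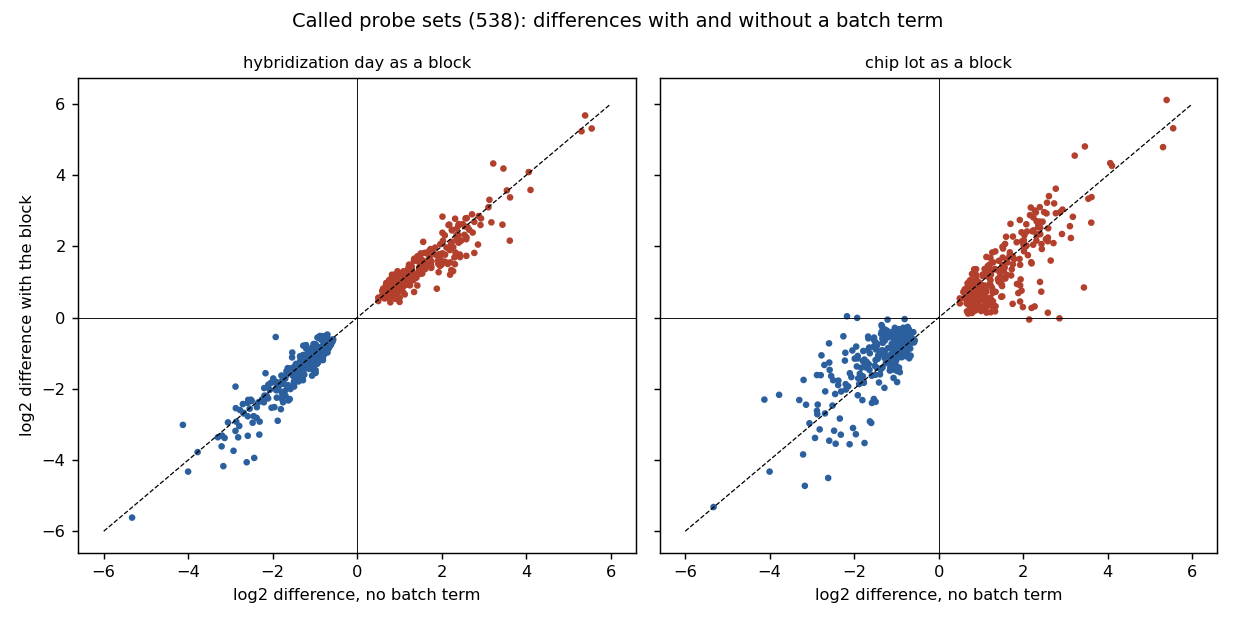
Log2 differences of the 538 called probe sets, tumours minus thymocytes, without a batch term (x axis) and with hybridization day (left, y axis) or chip lot (right, y axis) as a block; red marks rises and blue falls, and the dashed line marks equal values. With day the points lie along the line, and with lot 103 of them fall below 0.5 of their value without a block or change sign.

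Notch1, Notch3 and some of their targets in immature T cells rose in tumours. Among 11 tested targets 4 rose and none fell, against 4.25% of all tested genes called higher and 3.69% called lower, and the list median was 0.92 on the log2 scale (1.05 within day 1 and 0.81 within lot 1), where that of all tested genes was -0.03. Dtx1, which encodes the Notch-induced ubiquitin ligase Deltex-1, had 2969, 3975 and 6298 in tumours, against 239 and 596 in WT and 325 and 258 in IkL/L thymocytes. The lowest tumour was thus far above the highest thymocyte array (log2 difference 3.62 ± 0.29, 12.3-fold higher, adjusted p = 0.000223). The Hes1 gene, encoding a repressor of transcription downstream of Notch, had 609.5, 847 and 946 in tumours, against 163 and 194 in WT and 204 and 258 in IkL/L thymocytes (log2 difference 2.02 ± 0.18, 4.05-fold higher, adjusted p = 0.00027). Dtx1 and Hes1 were called within day 1 and within lot 1 as well, with 3.38 (adjusted p = 0.00443) within day 1 and 3.39 (adjusted p = 0.0213) within lot 1 for Dtx1 and 1.80 (adjusted p = 0.00839) within day 1 and 2.01 (adjusted p = 0.0214) within lot 1 for Hes1.

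The pre-T-cell-receptor gene Ptcra and the growth regulator Myc, both direct Notch targets in T cells, also rose. Ptcra had 981, 1507 and 2287 in tumours, against 504 and 669 in WT and 467 and 770.5 in IkL/L thymocytes (log2 difference 1.33 ± 0.24, 2.52-fold higher, adjusted p = 0.009). Myc had 462, 682 and 753 in tumours, against 203 and 262 in WT and 234 and 174 in IkL/L thymocytes (log2 difference 1.58 ± 0.19, 2.99-fold higher, adjusted p = 0.000999). In neither gene did a tumour fall into the range of the thymocyte arrays. Ptcra did not pass against either genotype alone, with 1.36 (adjusted p = 0.0698) against WT and 1.31 (adjusted p = 0.0746) against IkL/L thymocytes alone, nor in a batch, with 1.05 (adjusted p = 0.0991) within day 1 and 1.37 (adjusted p = 0.182) within lot 1. Myc passed within day 1 (1.45, adjusted p = 0.0288). Il2ra, the interleukin-2 receptor alpha chain of double-negative cells, had a log2 difference of 1.91 (adjusted p = 0.0703) and overlapped between the groups. Gata3 and Igf1r had 0.60 (adjusted p = 0.105) and 0.89 (adjusted p = 0.113).

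Of the receptors, ligands and processing enzymes 2 of 11 tested genes rose and none fell, against 4.25% of all genes called higher. Both rises were of receptors. Notch1 had 4052, 5220.3 and 7296 in tumours, against 1826 and 1448 in WT and 1389.6 and 1697 in IkL/L thymocytes (log2 difference 1.73 ± 0.18, 3.32-fold higher, adjusted p = 0.000573), and its second probe set rose as well. Notch3 had 563, 1188 and 1681 in tumours, against 544 and 519 in WT and 517 and 341 in IkL/L thymocytes (log2 difference 1.27 ± 0.28, 2.41-fold higher, adjusted p = 0.0225), and tumour 4 was the lowest tumour by a wide gap. Notch3 was not called within either batch, with 1.04 (adjusted p = 0.207) within day 1 and 1.83 (adjusted p = 0.0954) within lot 1. Without tumour 6 the list had 3 called higher and 0 lower. The list median was 0.21 (0.03 within day 1 and 0.22 within lot 1) and 9 members did not pass.

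Promoter windows of the pair of called targets held by the RefSeq table (250 bases before to 50 after the gene's start, GRCm38.p6) are shown because these genes rose together; capitals mark the RBPJ core letters TGGGAA on the strand shown or TTCCCA, its reverse complement. The Ptcra window (chr17:46763663-46763962, minus strand) holds 2 matches and the Dtx1 window (chr5:120711620-120711919, minus strand) holds 0. Among all 27025 genes with a window 28.3% hold at least 1 match, and 3 of the 8 tested targets with a window do.
Ptcra: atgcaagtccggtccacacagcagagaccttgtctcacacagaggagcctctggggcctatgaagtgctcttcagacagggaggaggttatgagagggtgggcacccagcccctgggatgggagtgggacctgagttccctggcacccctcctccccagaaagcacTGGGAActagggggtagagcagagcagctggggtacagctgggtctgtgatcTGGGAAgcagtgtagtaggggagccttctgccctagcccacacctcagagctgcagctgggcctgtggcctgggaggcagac
Dtx1: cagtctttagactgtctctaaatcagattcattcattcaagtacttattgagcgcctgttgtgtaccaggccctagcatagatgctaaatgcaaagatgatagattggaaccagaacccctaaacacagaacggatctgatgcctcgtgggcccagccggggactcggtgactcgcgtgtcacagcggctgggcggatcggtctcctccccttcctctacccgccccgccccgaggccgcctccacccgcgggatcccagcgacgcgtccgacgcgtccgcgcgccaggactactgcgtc

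Of 11 tested genes of the double-positive stage 7 fell and none rose, against 3.69% of all genes called lower, with a list median of -1.95 (-1.81 within day 1 and -0.50 within lot 1). Cd4, the co-receptor for MHC class II, had 104, 359.9 and 845 in tumours, against 2512 and 2006 in WT and 1559 and 2138 in IkL/L thymocytes (log2 difference -2.59 ± 0.45, 6.02-fold lower, adjusted p = 0.00724). Cd8a, the alpha chain of the co-receptor for class I, had 992, 1686 and 3984 in tumours, against 7221 and 8472 in WT and 5891 and 6656 in IkL/L thymocytes (log2 difference -1.95 ± 0.41, 3.87-fold lower, adjusted p = 0.0171). Tumour 6 was the highest tumour for both, and every tumour lay below every thymocyte array. Cd8b1 fell in the pooled comparison (adjusted p = 0.037), yet tumour 6 had 14805, inside the thymocyte range of 13312 to 17497, while the other 5 tumours had 1592 to 4021. The log2 difference of Cd8b1 was -1.56 (adjusted p = 0.295) within day 1 and 0.04, of the opposite sign, within lot 1.

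Further falls among double-positive genes were Plxnd1, a semaphorin receptor that guides thymocytes to the medulla (6.92-fold, adjusted p = 0.00591), the gut- and thymus-homing receptor gene Ccr9 (6.43-fold, adjusted p = 0.0193), the transcriptional repressor gene Bcl6 (6.04-fold, adjusted p = 0.0195) and the chromatin organizer gene Satb1 (2.53-fold, adjusted p = 0.0249). Ccr9 lay at the floor in 1 tumour. Satb1 shared with Cd8b1 a tumour 6 value, 3687, inside the thymocyte range. Of the 7 falls, Plxnd1 alone was called within day 1 and none within lot 1. Without tumour 6 the list had 0 called higher and 8 lower.

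The recombinase genes Rag1 and Rag2, which cut antigen-receptor genes, fell together. Rag1 had 1736, 2373 and 3503 in tumours, against 7416 and 11019.7 in WT and 8392 and 8617 in IkL/L thymocytes (log2 difference -1.83 ± 0.23, 3.56-fold lower, adjusted p = 0.0014). Rag2 had 45.2, 124 and 221 in tumours, against 898 and 919.6 in WT and 978 and 808 in IkL/L thymocytes (log2 difference -3.14 ± 0.46, 8.80-fold lower, adjusted p = 0.00284). No tumour overlapped a thymocyte array for either gene, and both passed within day 1, with -1.87 (adjusted p = 0.0155) within day 1 and -1.41 (adjusted p = 0.113) within lot 1 for Rag1 and -3.38 (adjusted p = 0.0204) within day 1 and -2.45 (adjusted p = 0.188) within lot 1 for Rag2. A second probe set of Rag1 did not pass, with -0.49 (adjusted p = 0.585) and overlapping groups. Dntt, which adds untemplated nucleotides at the joints, fell 2.84-fold (adjusted p = 0.037), and Xrcc5, a subunit of the end-joining factor Ku, rose 1.80-fold (adjusted p = 0.0481). The median of the recombination list was -0.42 (-0.94 within day 1 and -0.60 within lot 1). In all, 3 of 7 genes of the list fell and 1 rose, against 3.69% of all genes called lower and 4.25% called higher. Of these, Rag1 and Rag2 were called within day 1 and none within lot 1.

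Among 7 tested genes of mature single-positive thymocytes 2 fell and none rose, against 3.69% of all genes called lower (median -1.43, -1.96 within day 1 and -0.94 within lot 1). Of the 2, Ccr7 was above the array median, the filter for testing, in thymocyte arrays alone. Such a gene had to differ, so Ccr7 is not read against that share. Ccr7, a chemokine receptor that draws selected cells to the medulla, had 11, 38.5 and 76.1 in tumours, against 297 and 204 in WT and 307 and 411 in IkL/L thymocytes (log2 difference -3.06 ± 0.40, 8.33-fold lower, adjusted p = 0.0017), with 1 tumour at the floor. Ltb, which encodes the lymphotoxin subunit by which thymocytes maintain medullary epithelium, had 230.5, 460.1 and 1134 in tumours, against 2243 and 2445 in WT and 2248 and 2771 in IkL/L thymocytes (log2 difference -2.45 ± 0.40, 5.46-fold lower, adjusted p = 0.00537). Both were also called within day 1. Cd6 and the kinase gene Dgka had -1.43 (adjusted p = 0.0589) and -1.55 (adjusted p = 0.062) without overlap between the groups. A second probe set of Cd6 fell, with -1.04 (adjusted p = 0.0393), and was not called within day 1 (adjusted p = 0.0801). Without tumour 6 the list had 0 called higher and 4 lower.

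Of the 10 genes induced through the T-cell receptor all had negative differences and 4 fell, against 3.69% of all genes called lower. Their median was -0.80 (-1.27 within day 1 and -0.81 within lot 1). Egr2, an early-response transcription factor required in selection, had 54.6, 79.5 and 139 in tumours, against 481 and 398 in WT and 587 and 438 in IkL/L thymocytes (log2 difference -2.50 ± 0.27, 5.65-fold lower, adjusted p = 0.000574). Egr1, of the same family, fell 2.38-fold (adjusted p = 0.0315), the receptor-tuned inhibitor gene Cd5 2.73-fold (adjusted p = 0.0105) and Id3, an inhibitor of E proteins induced by Egr factors, 3.11-fold (adjusted p = 0.0147). Tumours and thymocytes did not overlap for any of the 4, and Egr2 alone was called within day 1. Of the receptor complex itself, 2 of 15 CD3 and proximal signalling genes fell and none rose, against the same 3.69% (median -0.26, -0.32 within day 1 and -0.16 within lot 1). Those were Cd247, the zeta chain (2.02-fold, adjusted p = 0.0161), and Lcp2, the adaptor SLP-76 (1.93-fold, adjusted p = 0.0147), while the CD3 chain genes did not pass, with -0.32 (adjusted p = 0.446) for Cd3e, 0.09 (adjusted p = 0.812) for Cd3d and -0.20 (adjusted p = 0.743) for Cd3g on the log2 scale.

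**Figure D3:**
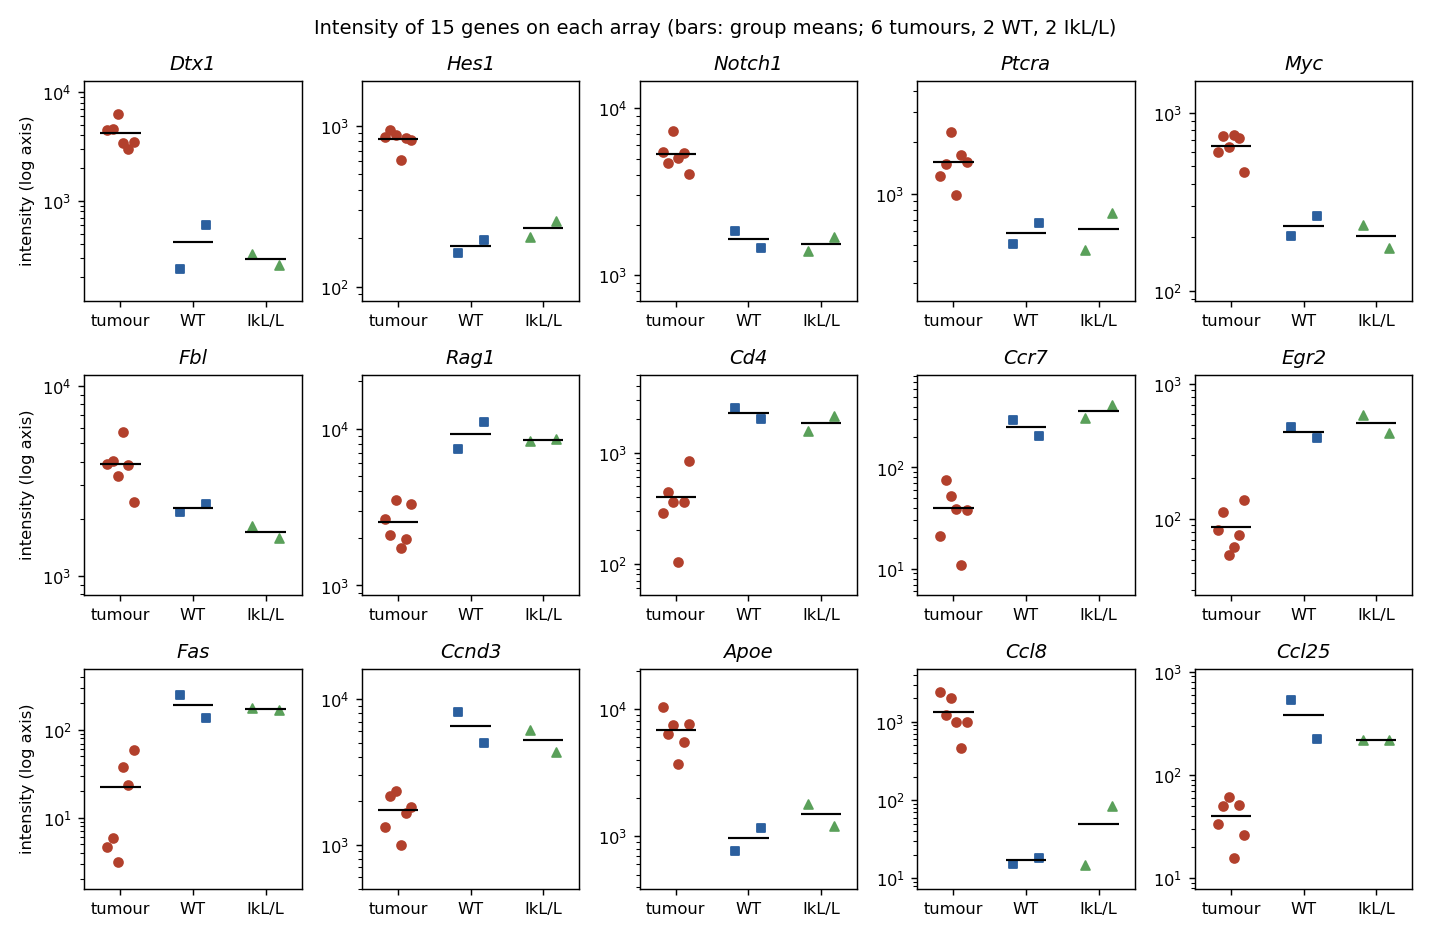
Intensity (log axis, as deposited) of 15 genes on each array, with tumours as circles, WT thymocytes as squares and IkL/L thymocytes as triangles; bars mark group means (n = 6, 2 and 2). For all 15 genes the 6 tumours lie wholly above or wholly below the 4 thymocyte arrays.

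Among 23 tested genes of ribosome biogenesis and other Myc-regulated growth 11 rose and none fell, against 4.25% of all genes called higher. Of the list, 22 had positive differences, and the median was 0.85. Fbl, the nucleolar RNA methyltransferase fibrillarin, had 2465, 3863 and 5727 in tumours, against 2172 and 2398 in WT and 1827 and 1585 in IkL/L thymocytes (log2 difference 0.93 ± 0.23, 1.91-fold higher, adjusted p = 0.0324). Rrs1, a ribosome assembly factor, had 342, 537 and 854 in tumours, against 282 and 245 in WT and 213 and 202 in IkL/L thymocytes (log2 difference 1.21 ± 0.24, 2.31-fold higher, adjusted p = 0.0119). In both genes tumour 6 was the lowest tumour and yet above every thymocyte array. The other rises were Nolc1, Gnl3, Rcl1, Srm, Cad, Mybbp1a, Nop2, Nop58 and Nop56, of 1.73-fold to 2.52-fold. Gnl3 and Rcl1 overlapped between the groups. Srm makes spermidine and Cad starts pyrimidine synthesis.

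Chip lot moved with the growth genes. The list median was 0.91 within day 1 and 0.39 within lot 1, so tumour 6 stood at 0.39 and tumours 1 to 5 at 0.55 to 1.40, and the thymocyte arrays at -0.17 to 0.17. Mybbp1a rose by 1 of its 3 probe sets, the other two having 1.07 (adjusted p = 0.197) and 0.66 (adjusted p = 0.278). None of the 11 rises was called within day 1 or within lot 1, and without tumour 6 the list had 16 called higher and 0 lower. The part of lot in this result was not tested. Ribosomal protein genes, the products that these factors assemble, had 0 of 23 called by limma (7 higher and 0 lower at an unadjusted p under 0.05), with a median of 0.28 (0.34 within day 1 and 0.40 within lot 1), although a second probe set of Rpl10a rose, with 0.63 (adjusted p = 0.0271).

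The E-box CACGTG, the palindromic letters that Myc-Max dimers bind, was searched in the RefSeq promoter windows (GRCm38.p6) because the growth genes rose together. It occurs in 2 of 8 growth genes that rose and have a window and in 4 of 18 tested ones, against 12.6% of 4428 tested genes and 8.09% of all 27025 genes with a window. The 2 windows that hold it among the rises are those of Nop2 (chr6:125131633-125131932, plus strand) and Mybbp1a (chr11:72441077-72441376, plus strand), with the E-box in capitals.
Nop2: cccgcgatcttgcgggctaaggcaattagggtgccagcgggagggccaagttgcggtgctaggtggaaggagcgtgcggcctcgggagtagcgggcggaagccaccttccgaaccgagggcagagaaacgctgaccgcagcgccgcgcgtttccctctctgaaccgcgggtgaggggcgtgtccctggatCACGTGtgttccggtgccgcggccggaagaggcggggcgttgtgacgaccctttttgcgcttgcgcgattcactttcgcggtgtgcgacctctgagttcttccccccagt
Mybbp1a: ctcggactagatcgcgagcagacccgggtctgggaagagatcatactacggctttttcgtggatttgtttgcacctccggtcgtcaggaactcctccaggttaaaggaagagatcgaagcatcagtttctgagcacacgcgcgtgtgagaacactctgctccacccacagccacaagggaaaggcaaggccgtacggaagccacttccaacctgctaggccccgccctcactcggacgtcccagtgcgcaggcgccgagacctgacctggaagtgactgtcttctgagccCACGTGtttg

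Of 15 tested genes of the glycolysis list 5 rose and none fell, against 4.25% of all genes called higher (median 0.81, 0.92 within day 1 and 0.25 within lot 1). Of the 5, Fbp1 was above the array median in tumours alone and had to differ, so it is not read against that share. Pgam1, phosphoglycerate mutase, had 1099.5, 1487 and 2884 in tumours, against 786 and 763 in WT and 689.9 and 447 in IkL/L thymocytes (log2 difference 1.29 ± 0.28, 2.45-fold higher, adjusted p = 0.0186). Aldoa, Pkm and Ldha, of upper glycolysis, its last step and lactate formation, rose 1.99-fold (adjusted p = 0.0326), 2.19-fold (adjusted p = 0.0423) and 1.75-fold (adjusted p = 0.0445), Pkm with 1 tumour, tumour 6, inside the thymocyte range. The remaining call, Fbp1, encodes the gluconeogenic enzyme that opposes phosphofructokinase and is no step of glycolysis. It had 193, 919 and 2483 in tumours, against 14.8 and 63.5 in WT and 13.7 and 11.5 in IkL/L thymocytes, with 3 of the 4 thymocyte arrays at the floor (log2 difference 5.31 ± 0.69, 39.7-fold higher, adjusted p = 0.0017). Within day 1 Fbp1 alone was called, with adjusted p of 0.0918 for Pgam1, 0.12 for Aldoa, 0.282 for Pkm and 0.161 for Ldha. Within lot 1 none was. Without tumour 6 the list had 8 called higher and 0 lower. Oxidative phosphorylation genes had 2 of 61 called higher, close to the 4.25% of all genes, with a median of 0.31. Of the 61, 51 had positive differences, and 13 were higher and 1 lower at an unadjusted limma p under 0.05. Proteasome genes had 0 of 35 (median 0.28; 6 higher and 0 lower at an unadjusted limma p under 0.05) and cholesterol synthesis genes 0 of 12 (median -0.40; 0 higher and 2 lower at that p).

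No gene of replication and mitosis was called: limma called 0 of 21 in either direction (1 higher and 2 lower at an unadjusted p under 0.05). The list median was -0.17 (-0.06 within day 1 and -0.33 within lot 1), and Mki67 and Top2a had -0.35 (adjusted p = 0.266) and -0.46 (adjusted p = 0.177). Regulators of the G1 phase changed in both directions, with 1 of 13 higher and 3 lower, against 4.25% and 3.69% of all genes (median -0.16, -0.13 within day 1 and 0.16 within lot 1). Among the D-type cyclins, Ccnd1 had 152, 402 and 491 in tumours, against 81.1 and 69.8 in WT and 104 and 73.6 in IkL/L thymocytes (log2 difference 1.93 ± 0.38, 3.81-fold higher, adjusted p = 0.0123). Ccnd3, the D-type cyclin needed for expansion of early thymocytes, had 995, 1739.8 and 2358 in tumours, against 8107 and 5019.5 in WT and 6169 and 4304 in IkL/L thymocytes (log2 difference -1.79 ± 0.27, 3.47-fold lower, adjusted p = 0.00346). Ccnd1 was called neither within day 1 (adjusted p = 0.12) nor within lot 1 (adjusted p = 0.531), and its second probe set had 0.46 (adjusted p = 0.654). By these probe sets the 2 cyclins thus moved in opposite directions with no overlap of the groups. The kinase inhibitor gene Cdkn2d fell 3.44-fold (adjusted p = 0.0081) and the retinoblastoma gene Rb1 2.09-fold (adjusted p = 0.0338); Ccnd3 was the fall called within day 1 (-2.09, adjusted p = 0.0193 within day 1 and -1.65 (adjusted p = 0.152) within lot 1).

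Of 10 survival and death genes 3 fell and 1 rose, against 3.69% and 4.25% of all genes (median -0.26, -0.30 within day 1 and -0.20 within lot 1). Of the falls, Fas was above the array median in thymocyte arrays alone and had to differ, so it is not read against that share. Fas, a death receptor, had 3.1, 14.7 and 58.7 in tumours, against 249 and 137 in WT and 179 and 171 in IkL/L thymocytes (log2 difference -2.88 ± 0.38, 7.36-fold lower, adjusted p = 0.00171), and 3 tumours lay at the floor. Bcl2l1, the survival factor of double-positive thymocytes, had 299.7, 368 and 684 in tumours, against 1220.1 and 1207 in WT and 1347 and 1369 in IkL/L thymocytes (log2 difference -1.67 ± 0.23, 3.19-fold lower, adjusted p = 0.00208). Bcl2, which protects single-positive cells, fell 2.38-fold (adjusted p = 0.0177), and Bid, a death promoter cleaved by caspase-8, rose 1.79-fold (adjusted p = 0.0422). The falls of Fas, Bcl2l1 and Bcl2 were also called within day 1, and no gene of the list was within lot 1. Bid was not within day 1 (adjusted p = 0.189), and 1 of the 3 Bcl2 probe sets did not pass, with -0.51 (adjusted p = 0.21). Of 8 genes of p53 and its targets 0 were called by limma (1 higher and 2 lower at an unadjusted p under 0.05; median -0.14; 0.07 within day 1 and 0.34 within lot 1).

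Of 19 JAK-STAT genes and receptor chains, read by their brightest probe sets, 5 fell and none rose, against 3.69% of all genes called lower. In the list 18 had negative differences (median -0.59, -0.73 within day 1 and -0.37 within lot 1). Socs1, the feedback inhibitor of cytokine receptors, had 580.3, 938 and 1466 in tumours, against 2998 and 2656 in WT and 3152 and 2379 in IkL/L thymocytes (log2 difference -1.58 ± 0.24, 3.00-fold lower, adjusted p = 0.00377). The receptor chain Il4ra had 48.9, 151 and 179 in tumours, against 1053 and 621 in WT and 596 and 466 in IkL/L thymocytes (log2 difference -2.38 ± 0.37, 5.20-fold lower, adjusted p = 0.00396). Ifngr1, the receptor of interferon-gamma, Stat4 and the kinase gene Pim1, a cytokine target, fell 2.42-fold (adjusted p = 0.0143), 2.13-fold (adjusted p = 0.0128) and 2.07-fold (adjusted p = 0.00704). No tumour overlapped a thymocyte array for any of the 5. Socs1, Il4ra and Ifngr1 were called within day 1 and none within lot 1. Dimmer probe sets of the list went both ways: Socs3 had 1.61 (adjusted p = 0.009) and Ifnar2 1.16 (adjusted p = 0.0179), both called higher, and that of Pim1 did not pass, with -0.57 (adjusted p = 0.262). Neither rise was called within day 1 (adjusted p = 0.0961 for Socs3 and 0.131 for Ifnar2). The Ifnar2 probe set was above the array median in tumours alone and had to differ, and the brighter one of that gene had -0.46 (adjusted p = 0.329). Of 13 NF-kB genes 2 fell, against 3.69% of all genes called lower (median -0.51, -0.63 within day 1 and -0.36 within lot 1). They were Birc3, an inhibitor of apoptosis (1.76-fold, adjusted p = 0.0277), and Traf1, a signalling adaptor induced by NF-kB. Traf1 was above the array median in thymocyte arrays alone and had to differ, so it is not read against that share. Traf1 had 4.6, 11.7 and 12.8 in tumours, against 121 and 129.9 in WT and 128 and 56.5 in IkL/L thymocytes. It was not above the floor in any tumour, so the fall was at least 6.45-fold (adjusted p = 0.000223), and it was called within day 1 and within lot 1 as well. Without tumour 6 the NF-kB list had 0 called higher and 4 lower. Interferon and MHC class I genes had 0 of 15 called by limma (2 higher and 3 lower at an unadjusted p under 0.05; median -0.09; -0.17 within day 1 and -0.23 within lot 1).

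Of 13 tested genes of Ikaros and its chromatin partners, read by their brightest probe sets, 0 passed in limma (0 higher and 2 lower at an unadjusted p under 0.05), among them Chd4 (0.10, adjusted p = 0.733), Hdac1 (-0.06, adjusted p = 0.866) and Smarca4 (-0.38, adjusted p = 0.155), and their median was -0.06 (-0.07 within day 1 and -0.18 within lot 1). Sin3b, a scaffold of deacetylase complexes, had -0.12 (adjusted p = 0.685) by its brighter probe set and fell by its dimmer one, with -1.60 (adjusted p = 0.0197). That call was also made with day and with lot as a block, at -2.29 (adjusted p = 0.0141) within day 1 and -2.96 (adjusted p = 0.00552) within lot 1. Of the 5 E and Id proteins, the regulators of lymphoid differentiation, Id3 fell as described, against 3.69% of all genes called lower. A list with 1 fall is not read as a result. Id2 had 0.92 (adjusted p = 0.0608), with no overlap and tumour 6 the highest. The median of the E and Id list was 0.11 (0.08 within day 1 and 0.26 within lot 1). Among 7 progenitor factors 1 rose, the homeobox gene Pbx3 (list median 0.64, 0.43 within day 1 and 1.16 within lot 1). It was above the array median in tumours alone and had to differ, so this count is not read against the 4.25% of all genes called higher. Pbx3, a partner of HOX and MEIS proteins, had 76.3, 279.7 and 602 in tumours, against 16.2 and 25.6 in WT and 4.9 and 32.2 in IkL/L thymocytes (log2 difference 3.46 ± 0.52, 11-fold higher, adjusted p = 0.00335). By this probe set it was called within day 1 (4.19, adjusted p = 0.00638) and had 4.81 within lot 1, and 1 thymocyte array lay at the floor. Its other 2 probe sets rose too, at 2.24 and 1.85, but were also above the array median in tumours alone and had to differ. Within day 1 the one at 2.24 was called (adjusted p = 0.0354) and the one at 1.85 was not (adjusted p = 0.0655). Lmo2 had 0.66 (adjusted p = 0.111). The cytokine receptor gene Flt3 had -0.55 (adjusted p = 0.275), and fell by a dimmer probe set, with -1.54 (adjusted p = 0.0109).

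**Figure D4:**
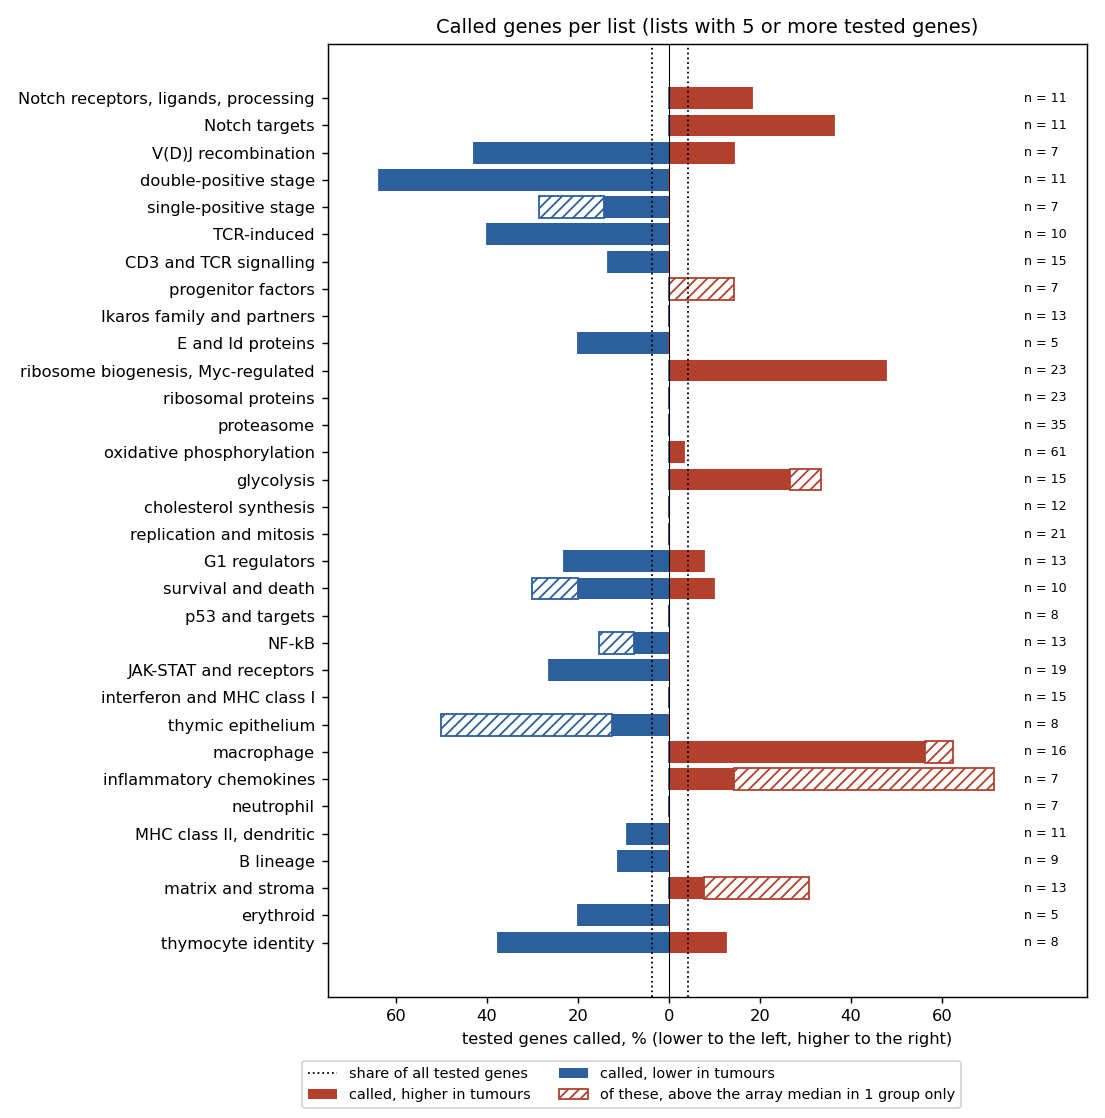
For each gene list with at least 5 tested genes, the percent of tested genes called lower (bars to the left) and higher (bars to the right) in tumours, n being the genes tested; dotted lines mark the 3.69% and 4.25% of all tested genes. Hatched parts are called genes that were above the array median in 1 group only; such a gene passed the filter through the group where it was high and had to differ, so they are not read against the lines. Of the solid parts, macrophage and ribosome biogenesis genes reach farthest to the right and double-positive genes to the left.

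Thymic epithelium is the stroma that selects thymocytes, and the summed intensity of its 14 markers on the array was 797 to 1709 in tumours and 2109.7 to 6049 in thymocytes, without overlap. Of these, 8 passed the filter on dim probe sets, 3 of them (Ccl25, Krt8 and Krt18) through the thymocyte arrays alone. A gene that enters through 1 group had to differ, so no count or median is read for this list. The same holds below for the lists of chemokine, matrix, endothelial, adipose, cytotoxic and metallothionein genes, and 1 called member entered so in each of the single-positive (Ccr7), progenitor (Pbx3), glycolysis (Fbp1), survival (Fas), NF-kB (Traf1) and macrophage (Mrc1) lists. Ccl25, the epithelial chemokine for CCR9, had 15.8, 42 and 60.7 in tumours, against 534 and 224 in WT and 219 and 218 in IkL/L thymocytes (log2 difference -2.93 ± 0.40, 7.60-fold lower, adjusted p = 0.00214). Ctsl, the cathepsin that processes the class II chaperone in cortical epithelium, had 249.5, 331 and 667 in tumours, against 3904 and 3029 in WT and 860.3 and 4723 in IkL/L thymocytes (log2 difference -2.86 ± 0.46, 7.27-fold lower, adjusted p = 0.00462). Ctsl alone made up much of the epithelial sum, which was 5806 and 4270 in WT and 2109.7 and 6049 in IkL/L thymocytes. The keratin genes Krt8 and Krt18 fell 7.37-fold (adjusted p = 0.00591) and 4.41-fold (adjusted p = 0.00172). Ccl25 lay at the floor in 1 tumour and Krt8 in 2. These 4 were all called within day 1 too and none within lot 1. Krt14 lay at or under the floor in every tumour.

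Of 16 tested macrophage markers 10 rose and none fell, against 4.25% of all genes called higher (median 0.9979, 0.82 within day 1 and 0.80 within lot 1). Of the 10, Mrc1 entered through the tumours alone and is not read against that share. The summed intensity of all 21 was 15054 to 28128 in tumours and 7335 to 8587 in thymocytes, so every tumour exceeded every thymocyte array. Apoe, a lipid carrier abundant in macrophages, had 3669.8, 6865 and 10358 in tumours, against 772 and 1164 in WT and 1799.9 and 1197 in IkL/L thymocytes (log2 difference 2.46 ± 0.30, 5.51-fold higher, adjusted p = 0.0012). The complement genes C1qb, C1qa and C1qc rose 5.44-fold (adjusted p = 0.00058), 3.06-fold (adjusted p = 0.00256) and 2.88-fold (adjusted p = 0.0022); a second, dimmer probe set of C1qb had a difference of the opposite sign that did not pass. Csf1r, the receptor for the macrophage growth factor, had 192, 248 and 409 in tumours, against 108 and 128 in WT and 121 and 71.9 in IkL/L thymocytes (log2 difference 1.35 ± 0.25, 2.55-fold higher, adjusted p = 0.0102), while its second probe set had 0.24 (adjusted p = 0.44). Cd68, the mannose receptor gene Mrc1, Ctsb, Ctss and Tyrobp rose 2.12-fold, 4.26-fold, 1.80-fold, 1.88-fold and 1.77-fold, with adjusted p of 0.00462 to 0.0452; Ctss and Tyrobp overlapped between the groups, and 1 of the 3 Ctsb probe sets did not pass, with 0.84 (adjusted p = 0.25). Apoe was the macrophage gene called within lot 1, and Apoe, C1qb and C1qc were called within day 1. Itgam lay at or under the floor in every thymocyte array.

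Inflammatory chemokines and Saa3 included several of the largest rises. The summed intensity of the 17 members on the array was 2722 to 7153 in tumours and 601 to 843 in thymocytes. Of the 7 that passed the filter, 4 (Ccl8, Ccl9, Cxcl13 and Saa3) did so through the tumours alone. Ccl8, which attracts monocytes, had 463, 1109 and 2396 in tumours, against 15.5 and 18.5 in WT and 14.7 and 84.9 in IkL/L thymocytes (log2 difference 5.55 ± 0.55, 46.9-fold higher, adjusted p = 0.000388). Saa3, an acute-phase protein made by macrophages, had 71.8, 1290.0 and 3239.6 in tumours, against 10.6 and 19.5 in WT and 27.8 and 20.9 in IkL/L thymocytes (log2 difference 5.40 ± 0.83, 42.1-fold higher, adjusted p = 0.00378), tumour 3 being far below the others. Cxcl13, a B-cell attractant, had 46.4, 276 and 779 in tumours and was not above the floor in any thymocyte array (5.7 and 6.5 in WT and 7.2 and 6.5 in IkL/L thymocytes), so it rose at least 16.7-fold (adjusted p = 0.00421). Ccl9 and Ccl6 rose 9.05-fold (adjusted p = 0.00246) and 2.27-fold (adjusted p = 0.0309). The floor enters the folds of Ccl8, Saa3 and Ccl9, since 2, 1 and 1 thymocyte arrays lay at it. Ccl8, Saa3 and Cxcl13 were called within day 1, and Ccl8 alone within lot 1. The macrophage sums given above were also higher in every tumour, and their part in these rises was not tested.

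Neutrophil markers had 0 of 7 called by limma (0 higher and 0 lower at an unadjusted p under 0.05; median -0.80, -1.71 within day 1 and 0.26 within lot 1; sum 486 to 3893 in tumours and 1354 to 5105 in thymocytes). MHC class II and dendritic genes had 1 fall of 11, H2-Eb1 (2.66-fold, adjusted p = 0.0277; median -0.95, -0.93 within day 1 and -1.76 within lot 1; sum 2131 to 6826 in tumours and 5229 to 8562 in thymocytes). B-lineage genes had 1 fall of 9, the B-cell receptor subunit gene Cd79b (3.89-fold, adjusted p = 0.0339; median -0.47, -0.58 within day 1 and -0.06 within lot 1; sum 2137 to 8667 in tumours and 5404 to 7985 in thymocytes), and Ebf1 lay at or under the floor in every thymocyte array. The sums of these 3 lists overlapped between tumours and thymocytes. Of all tested genes 3.69% were called lower, so 1 called fall in 11 or in 9 genes is too few to read as a result about a list. At an unadjusted limma p under 0.05 the MHC class II and dendritic list had 1 higher and 7 lower, and 9 of its 11 differences were negative. The B-lineage list had 0 higher and 3 lower at that p, which 24.4% of all tested probe sets passed in either direction.

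The sums of matrix and stromal genes overlapped, at 2782 to 5201 in tumours and 1841 to 3378 in thymocytes, and of 13 that passed the filter Dcn, Mgp and Pdgfrb did so through the tumours alone. Pdgfrb, a receptor of pericytes and fibroblasts, had 221, 458 and 635 in tumours, against 17.7 and 61.3 in WT and 11.5 and 95.5 in IkL/L thymocytes (log2 difference 3.54 ± 0.50, 11.7-fold higher, adjusted p = 0.00246). The matrix genes Dcn, Mgp and Fn1 rose 6.66-fold (adjusted p = 0.009), 6.83-fold (adjusted p = 0.00711) and 3.02-fold (adjusted p = 0.037). Pdgfrb was called within day 1 (adjusted p = 0.0364), but Dcn, Mgp and Fn1 were not (adjusted p = 0.119, 0.0737 and 0.104), and none of these was within lot 1. Thymocyte arrays at the floor numbered 3 for Col1a2, 2 for Mgp, 2 for Vwf and 1 each for Pdgfrb and Dcn, and 1 for Lpl and Mrc1. Col1a2, of type I collagen, rose by its dimmer probe set (124, 282 and 614 in tumours, against 12 and 7.3 in WT and 14.7 and 18.4 in IkL/L thymocytes; log2 difference 4.10 ± 0.43, 17.2-fold higher, adjusted p = 0.000543), while its brighter probe set had a difference of the opposite sign that did not pass; the list reads the brighter one. Col1a1 had 0.74 (adjusted p = 0.138) by its brighter probe set and rose by its dimmer one, with 2.57 (adjusted p = 0.0105). The dimmer probe sets of Col1a2 and Col1a1 passed the filter through the tumours alone and had to differ. The endothelial gene Vwf rose 3.79-fold (adjusted p = 0.0266) and entered through the tumours alone. It was not called within day 1 (adjusted p = 0.231). The sum over 8 endothelial genes was 558 to 1452 in tumours and 775 to 1236 in thymocytes.

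Of the cytotoxic and innate-like genes Gzma, a granule protease, had 723, 2014 and 2611 in tumours, against 498 and 413 in WT and 319.9 and 506 in IkL/L thymocytes (log2 difference 1.96 ± 0.35, 3.90-fold higher, adjusted p = 0.00881). Cd160, a receptor of intraepithelial and natural killer cells, rose 5.81-fold (adjusted p = 0.009) and entered through the tumours alone. Neither was called within a batch: Gzma had 1.65 (adjusted p = 0.124) within day 1 and 0.76 (adjusted p = 0.502) within lot 1, and Cd160 2.33 (adjusted p = 0.11) within day 1 and 2.20 (adjusted p = 0.273) within lot 1. The list summed to 1132 to 3011 in tumours and 538 to 769 in thymocytes over 7 genes. Trgv1, a T-cell receptor gamma variable segment, had 1434, 7229 and 15868 in tumours, against 329 and 565 in WT and 467 and 495 in IkL/L thymocytes (log2 difference 3.61 ± 0.56, 12.2-fold higher, adjusted p = 0.00396). Segments of such families are alike in sequence, so the identity of the transcript is uncertain. The adipose genes that rose were the lipase gene Lpl (5.26-fold, adjusted p = 0.00597) and Scd1 (2.19-fold, adjusted p = 0.0493; groups overlapped, and another probe set had the opposite sign), with a sum over 6 genes of 308 to 613 in tumours and 149 to 253 in thymocytes. Lpl entered through the tumours alone, and within day 1 it was called (adjusted p = 0.0354) and Scd1 was not (adjusted p = 0.169). Of 5 erythroid genes Car2 fell (2.55-fold, adjusted p = 0.0365), against 3.69% of all genes called lower, and 1 fall is too few to read as a result about the list. The erythroid list median was 0.19 (-0.24 within day 1 and 1.27 within lot 1). The erythroid sum ranged from 1639.9 (tumour 4) to 23255 (tumour 1) in tumours and from 8034 to 10783 in thymocytes. The 3 metallothionein genes, which bind zinc and copper, all rose, Mt1 with a probe set that entered through the tumours alone: Mt1 7.35-fold (adjusted p = 0.00341), Mt2 2.45-fold (adjusted p = 0.0472) and Mt3 1.73-fold (adjusted p = 0.0225). None was called within day 1 (adjusted p = 0.0546 for Mt1, 0.287 for Mt2 and 0.207 for Mt3) or within lot 1, and 2 were without tumour 6. The part of these cell types in the changes of other genes was not tested.

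**Figure D5:**
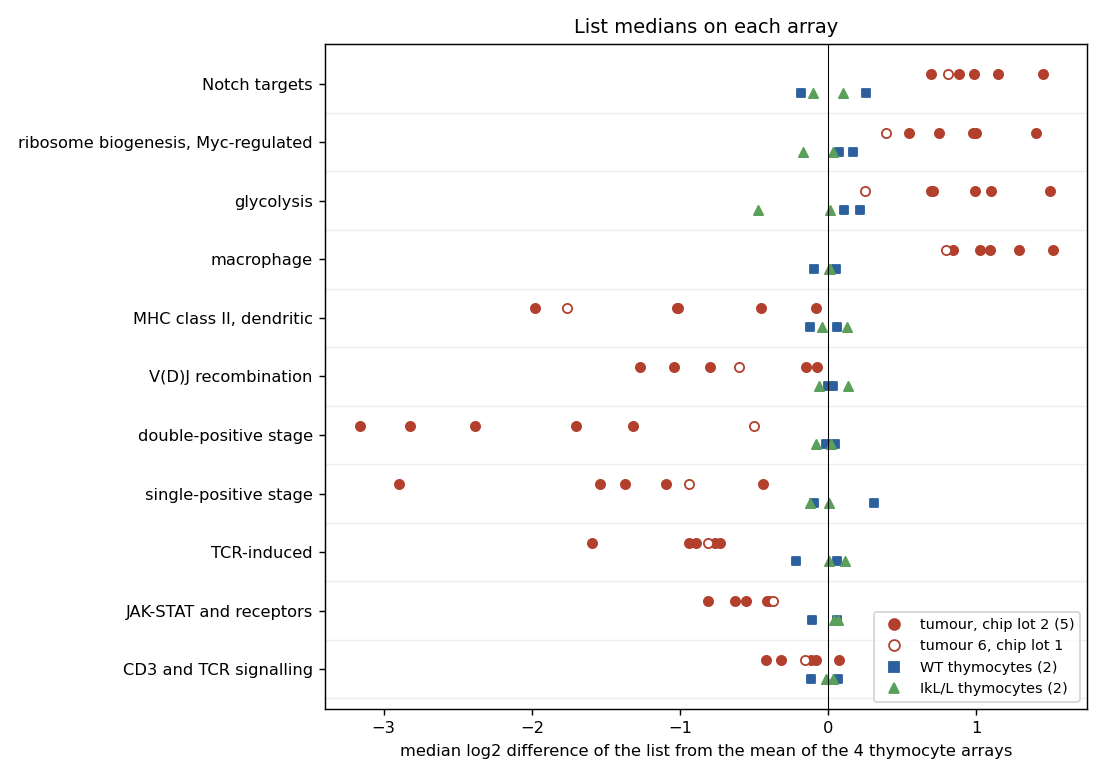
Median log2 difference of each list from the mean of the 4 thymocyte arrays (x axis), on each array: tumours as circles in the upper row of a list, with tumour 6 open, and WT squares and IkL/L triangles in the lower row. Tumours lie apart from all thymocyte arrays for each list drawn except MHC class II and CD3 genes, narrowly so for glycolysis and recombination. Tumour 6 lies nearest the thymocytes for ribosome biogenesis (0.39), glycolysis (0.25) and double-positive genes (-0.50).

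Several of the strongest changes belonged to no list. Tdrp had the smallest p of all, with 7.1, 19.6 and 29.9 in tumours, against 408 and 275 in WT and 354 and 267 in IkL/L thymocytes (log2 difference -4.00 ± 0.22, 16-fold lower, adjusted p = 7.73e-06), and 2 tumours lay at the floor. No tumour had Tdrp above its array median, so Tdrp passed the filter through the thymocyte arrays alone and had to differ. Other genes outside the lists entered through 1 group as well. S100a10, the annexin A2 partner p11, had 138, 248 and 329.5 in tumours, against 2046 and 1567 in WT and 1845 and 1254 in IkL/L thymocytes (log2 difference -2.82 ± 0.27, 7.04-fold lower, adjusted p = 0.00038), while a second, dimmer probe set did not differ beyond the spread (-0.04, adjusted p = 0.952). Dhrs3, a retinaldehyde reductase, had 50.1, 86.5 and 116 in tumours, against 438 and 583 in WT and 382 and 432 in IkL/L thymocytes (log2 difference -2.47 ± 0.25, 5.56-fold lower, adjusted p = 0.000388). By the probe sets given, each of these 3 was also called with day and with module as a block. Each kept its direction with lot, which rests on tumour 6 alone, and with run, which rests on the first WT array alone. Capn3, a calcium-dependent protease, fell 4.19-fold (adjusted p = 0.00058), and its second probe set fell too, with a log2 difference of -1.64 (adjusted p = 0.0022). Rmnd5a, a subunit of a ubiquitin ligase complex, fell 3.83-fold (adjusted p = 0.000743). Wdr78, Ccdc186 and Akr1c13, an aldo-keto reductase, fell 9.84-fold (adjusted p = 0.00058), 9.25-fold (adjusted p = 0.00491) and 7.32-fold (adjusted p = 0.0017), and Ccdc186 was at the floor in 3 tumours.

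Rises outside the lists included Sbf2, a myotubularin-related protein gene, with 395, 558 and 609.6 in tumours, against 68.8 and 101 in WT and 104 and 159.8 in IkL/L thymocytes (log2 difference 2.35 ± 0.23, 5.11-fold higher, adjusted p = 0.000388). Lgmn, a lysosomal endopeptidase, had 196, 232 and 392 in tumours, against 62.7 and 60.6 in WT and 44.1 and 47 in IkL/L thymocytes (log2 difference 2.24 ± 0.22, 4.72-fold higher, adjusted p = 0.000388). Both kept their calls within day 1 and within lot 1. The matricellular gene Ccn4 and the tetraspanin gene Tspan4 rose 8.76-fold (adjusted p = 0.0116) and 10.8-fold (adjusted p = 0.0159), with 1 and 2 thymocyte arrays at the floor. Tspan4 was uneven across batches, at 2.61 within day 1 and 0.85 within lot 1. Lgmn and Tspan4 passed the filter through the tumours alone and had to differ. Among the 12 genes with the largest rises, 9 were called with day as a block and 12 with module. Among the 12 with the largest falls the numbers were 12 and 12. Of all tested probe sets 2.51% were called with day and 4.73% with module. These genes were chosen as called and largest on the same arrays, so the counts are no independent support. Of the rises 10 had a thymocyte array at the floor, and of the falls 6 had a tumour there.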

How the data were processed

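Messenger RNA was measured in 10 samples. The authors deposited 1 table of linear intensities; their software is not given in the sources used here. The mean after trimming 2% at either end was 300.2 on every array, so values were taken as already scaled and kept. The platform annotation paired 10855 of 12488 probe sets with a single gene, 396 with more than 1 and 1237 with none; 66 control probe sets were left out.

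A floor of 16, near the 20th percentile over the table, replaced lower values before log2; a probe set at the floor has only a bound. Probe sets above the array median on at least 2 arrays were tested (7172, from 5476 genes). limma 3.58.1 in R 4.3.3 fitted 1 mean for tumours and 1 for thymocytes (8 residual and 3.18 prior degrees of freedom), with Benjamini-Hochberg adjustment over all tested probe sets. Folds were taken back from mean log2 differences, always as the larger group over the smaller; intensities carry SDs and differences standard errors. A list reads the probe set with the highest mean per gene, and no list was tested as a set. Arrays, not depth, limit the precision: 6 against 4. Chip lot, day, module and run came from the scanner records; hybridizations within 10 minutes were taken as 1 run.

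Named genes were the 12 largest rises and falls and the 8 smallest p in each direction among called, non-overlapping genes, up to 5 members of each list by p, and always Cd3e, Cd4, Cd8a, Rag1, Rag2, Myc, Il2ra, Ptcra, Dtx1, Hes1, Notch1, Notch3, Ikzf1 and Lck, the last without a tested probe set. Further list members in the text were picked after their values were seen. The members and lists were chosen with earlier results of these data known. Of 95 called genes with several tested probe sets, 14 had probe sets of opposite sign. The procedure was tested on simulated data.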

Additional observations from a re-analysis of the deposited data

Results flagged for a closer look

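Single arrays far from the rest of their group, by Dixon's ratio of the gap to the range on the log2 scale, were found in 28 of 356 groups examined over the named genes, where chance alone gives about 1 in 20. Among the tumours, tumour 1 had outlying intensities for Atp5e at 2083. Among the tumours, tumour 3 had outlying intensities for Saa3 at 71.8, Ccdc186 at 113. Among the tumours, tumour 4 had outlying intensities for Hes1 at 609.5, Il4ra at 48.9, Notch3 at 563, Uqcrq at 7743. Among the tumours, tumour 5 had outlying intensities for Numb at 50.1. Among the tumours, tumour 6 had outlying intensities for Mt3 at 378, Id2 at 1341, Fdps at 308, Mta2 at 386. Of the thymocytes, the first WT array had outlying intensities for Ccl25 at 534. Of the thymocytes, the second WT array had outlying intensities for Fbp1 at 63.5, Cd68 at 211, Tspan4 at 17.3, Tcf3 at 257. Of the thymocytes, the first IkL/L array had outlying intensities for Birc3 at 398, Ccl6 at 106, Slc4a1 at 13.9. Of the thymocytes, the second IkL/L array had outlying intensities for Traf1 at 56.5, Ccl8 at 84.9, Col1a2 at 18.4, Mgp at 26.2, Notch3 at 341, Rpl22 at 252, Cyp51 at 84, Alas2 at 114. The second IkL/L array accounted for 8 of them. For Hes1 and Notch3 the tumour that stood apart, tumour 4, was still above all thymocyte arrays, as was tumour 3 for Saa3. In 7 of these groups, those of Ccl8, Col1a2, Fbp1, Ccdc186, Mgp, Tspan4 and Slc4a1, some arrays, and for Slc4a1 the outlying one, were raised to the floor, which narrows the spread between them. For Col1a2 and Fbp1 the other 3 thymocyte arrays all lay at the floor, so their ratio is 1 by construction.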

How the results depend on the processing

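The comparison gave 538 probe sets (291 higher and 247 lower; 93 list genes and 94 named genes). The count stayed within 1.5 times of this with pseudocount in place of the floor, stricter filter, quantile normalization, arrays centred on their medians, 3 means, intensity trend and robust eBayes, 1 probe set per gene, at 449 to 693. No filter on dim probe sets gave 352 probe sets (178 higher and 174 lower; 58 list genes and 68 named genes). Array weights gave 983 probe sets (526 higher and 457 lower; 127 list genes and 114 named genes). Chip lot as a block gave 68 probe sets (22 higher and 46 lower; 9 list genes and 14 named genes). Hybridization day as a block gave 180 probe sets (63 higher and 117 lower; 37 list genes and 49 named genes). Fluidics module as a block gave 339 probe sets (189 higher and 150 lower; 67 list genes and 78 named genes). Fluidics run as a block gave 21 probe sets (6 higher and 15 lower; 5 list genes and 10 named genes). Lot 1 alone gave 125 probe sets (40 higher and 85 lower; 21 list genes and 26 named genes). Day 1 alone gave 123 probe sets (40 higher and 83 lower; 25 list genes and 36 named genes). Using WT thymocytes alone gave 135 probe sets (72 higher and 63 lower; 36 list genes and 47 named genes). Using IkL/L thymocytes alone gave 102 probe sets (65 higher and 37 lower; 27 list genes and 38 named genes). Run 1 alone, 3 arrays with 1 residual degree of freedom, gave 0 probe sets (0 higher and 0 lower; 0 list genes and 0 named genes) in limma, with 362 at an unadjusted p under 0.05. Leaving out each array in turn gave 230 to 879 probe sets, 123 to 464 higher and 107 to 415 lower, 52 to 118 list genes and 63 to 108 named genes; the cause was not tested, beyond fewer arrays. Of the single values of called named genes over all alternatives, 1850 kept direction and call, 777 kept direction and lost the call and none changed direction. The direction against each genotype alone was fixed by the calling rule. Cd8b1, called but not among the named genes, had a log2 difference of 0.04 within lot 1. No paired analysis was possible because the numbers in the sample labels are not shared between the groups. With blocks the share of calls that were higher in tumours was 32.4% (lot), 35.0% (day), 55.8% (module) and 28.6% (run), against 54.1% without.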

Other observations

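A set of 23 probe sets, 15 higher and 8 lower, was called without a block and with lot, day and module as blocks, and those outside the account above were chosen here after their values were seen. Reep1, a protein that shapes the endoplasmic reticulum, had 561 ± 254 in tumours and 115 ± 20.6 in thymocytes (log2 2.18, adjusted p = 0.00366). Sdc1, the cell-surface proteoglycan syndecan-1, had 92.8 ± 24.1 in tumours and 22.5 ± 12.3 in thymocytes (log2 2.08, adjusted p = 0.0022) by the dimmer of its 2 probe sets. The brighter Sdc1 probe set rose too (log2 2.36, adjusted p = 0.00462) but was not called with day (adjusted p = 0.0635) or lot as a block. Pvt1, the non-coding gene next to Myc, had 88.1 ± 32.4 in tumours and 17.8 ± 4.93 in thymocytes (log2 2.16, adjusted p = 0.00156), a rise alongside that of Myc. Slc11a1, a metal transporter of macrophage phagosomes, had 173 ± 44.3 in tumours and 34 ± 10.4 in thymocytes (log2 2.36, adjusted p = 0.00112), and Lilr4b, an inhibitory receptor of myeloid cells, 135 ± 37.2 in tumours and 21.1 ± 13 in thymocytes (log2 2.55, adjusted p = 0.00058). Sdc1, Pvt1, Slc11a1 and Lilr4b passed the filter through the tumours alone and had to differ. Chchd3, a mitochondrial cristae protein, had 2800.0 ± 224 in tumours and 1206 ± 97.3 in thymocytes (log2 1.21, adjusted p = 0.00073). Trav9d-3, a receptor alpha variable segment of a family whose members are alike in sequence, had 2605 ± 783 in tumours and 10200.3 ± 1838 in thymocytes (log2 -2.03, adjusted p = 0.0022). Its other probe sets fell without a block (log2 -1.51 and -1.53). With day as a block the first was called (adjusted p = 0.0167) and the second was not (adjusted p = 0.134), and with lot neither was.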
